A study of Homo sapiens with 4 samples.

Results

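CCL2, IRF9 and RIGI are 3 genes of the innate response to infection and tissue damage, taken here from the 14884 genes that a platform annotation names on the array. They were picked because earlier results of these data placed them among the genes with the smallest p of their pathway lists, on the higher side after origamicin. The probe annotation gives each gene 1 probe set: 16833204 for CCL2, 16782687 for IRF9 and 17093090 for RIGI (older symbol DDX58). Their values in the comparison of origamicin with mock are therefore a description and carry no test.

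The 4 samples, each read on 1 Human Gene 2.0 ST array from Affymetrix, are of SH-SY5Y, an established human neuroblastoma line of sympathetic lineage. In the origamicin group, 2 samples were kept for 24 h with 30 µM origamicin, an inhibitor of protein disulfide isomerase, an enzyme that forms disulfide bonds in the endoplasmic reticulum. In the mock group, 2 samples had the solvent methanol for 24 h. The labels call them biological replicates without saying whether they were separate passages, so the SD measures the spread between these samples only. The SE comes from the limma fit, which draws each gene's variance towards a value shared by the genes tested. It is therefore not the spread of 1 gene alone.

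RIG-I, the product of RIGI, is a cytosolic helicase that recognises viral RNA and signals through the mitochondrial adaptor MAVS and the kinase TBK1 to the transcription factor IRF3 and to NF-κB, which switch on type I interferon. Secreted interferon binds its receptor, the kinases JAK1 and TYK2 phosphorylate STAT proteins, and these join IRF9 in the complex ISGF3, which binds the interferon-stimulated response element (ISRE) in target promoters. RIGI and IRF9 are themselves interferon-stimulated genes in many cells. CCL2 (MCP-1) is a secreted chemokine that attracts monocytes through the receptor CCR2, and NF-κB and AP-1 are known to drive its gene.

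In the RefSeq annotation of GRCh38.p14 all 3 are protein-coding genes. CCL2 lies at chr17:34255285-34257203, IRF9 at chr14:24161265-24166565 and RIGI at chr9:32455302-32526196. The RefSeq promoter table gave windows for IRF9 and RIGI. The 250 bases before the start of each gene are shown because IRF proteins are known to bind close to gene starts, chr14:24161015-24161264 on the plus strand for IRF9 and chr9:32526197-32526446 on the minus strand for RIGI. Capitals mark matches to AANNGAAA, the core recognised by IRF proteins, on either strand.
IRF9: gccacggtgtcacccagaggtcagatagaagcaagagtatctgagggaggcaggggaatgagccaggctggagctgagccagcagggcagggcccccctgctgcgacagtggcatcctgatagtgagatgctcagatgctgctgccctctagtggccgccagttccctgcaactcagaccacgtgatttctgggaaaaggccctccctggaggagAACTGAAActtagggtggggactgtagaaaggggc
RIGI: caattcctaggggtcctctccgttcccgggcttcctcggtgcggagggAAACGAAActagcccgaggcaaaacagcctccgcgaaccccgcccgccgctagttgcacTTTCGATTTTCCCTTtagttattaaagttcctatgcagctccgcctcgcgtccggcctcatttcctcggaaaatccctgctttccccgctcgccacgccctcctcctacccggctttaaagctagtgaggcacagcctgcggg

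The IRF9 window held 1 match to AANNGAAA, from 35 to 28 bases before the start. The RIGI window held 3, from 202 to 195, 143 to 136 and 136 to 129 bases before the start, of which the last pair share a base and lie on the opposite strand. Of 27305 promoter windows of the same length, 20.6% held this motif. The longer ISRE core GAAA-NN-GAAA, which contains it, stood in 3.07% of windows and in neither of these. A match to TTCNNNGAA, the site bound by STAT dimers, was present in IRF9, from 63 to 55 bases before the start, and in 6.78% of windows. A match to the NF-κB form GGG-NN-TTTCC was present in RIGI, from 76 to 67 bases before the start on the opposite strand, and in 1.73% of windows. The AP-1 form TGANTCA was in neither window and in 6.6% of all.

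CCL2 showed the largest difference of the 3 genes. Its deposited log2 level was 4.77 and 5.07 on the mock arrays and 5.78 and 6.26 on the origamicin arrays. Both treated arrays lay above both mock arrays, with a gap of 0.71 between the nearest of them, wider than the 0.48 between the treated arrays. The group means were 4.92 ± 0.21 and 6.02 ± 0.34 (SD, n = 2), a log2 change of 1.10 ± 0.20 (SE from limma), or 2.14-fold. The change ranked number 7 from the top among the 11883 genes tested. Single pairs of arrays differed by between 0.71 and 1.49. In bulk samples such as these, a change in the number of cells that make a transcript and a change in RNA per cell cannot be told apart.

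RIGI stood at 6.33 and 6.06 on the mock arrays and at 6.58 and 6.68 on the origamicin arrays. The groups did not overlap, but the gap of 0.25 was slightly narrower than the 0.27 between the mock arrays. The log2 change was 0.44 ± 0.11 (SE), or 1.35-fold, number 211 from the top.

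IRF9 stood at 5.79 and 5.67 in mock and at 6.12 and 6.04 with origamicin. The arrays of a group lay 0.12 and 0.08 apart, less than the gap of 0.25 between the groups. The log2 change was 0.35 ± 0.08 (SE), or 1.28-fold, number 411 from the top. This was the smallest change and the smallest SE of the 3 genes.

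All 3 genes were thus higher on both treated arrays, where 22.7% of all genes tested had groups that did not overlap on the higher side. Since this comparison chose the genes, nothing is read from that count. All 3 lay above the filter on dim genes at 3.82, CCL2 by 1.65, IRF9 by 2.08 and RIGI by 2.59 on average over the 4 arrays.

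**Figure D1:**
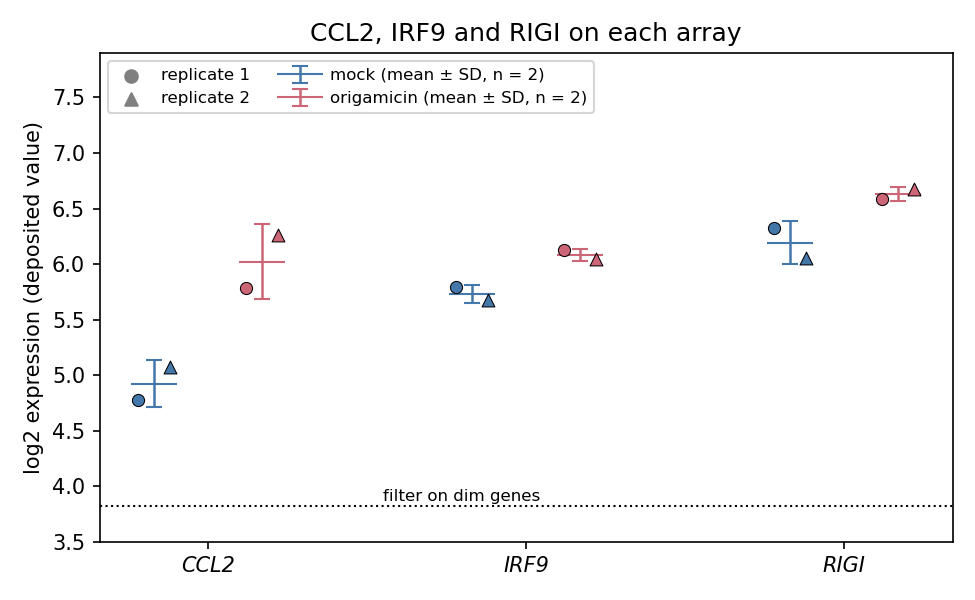
Deposited log2 expression of CCL2, IRF9 and RIGI on each of the 4 arrays (circles replicate 1, triangles replicate 2), with the group mean and SD (n = 2). CCL2 averages 4.92 in mock and 6.02 with origamicin, and the steps of IRF9 (0.35) and RIGI (0.44) are smaller.

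**Figure D2:**
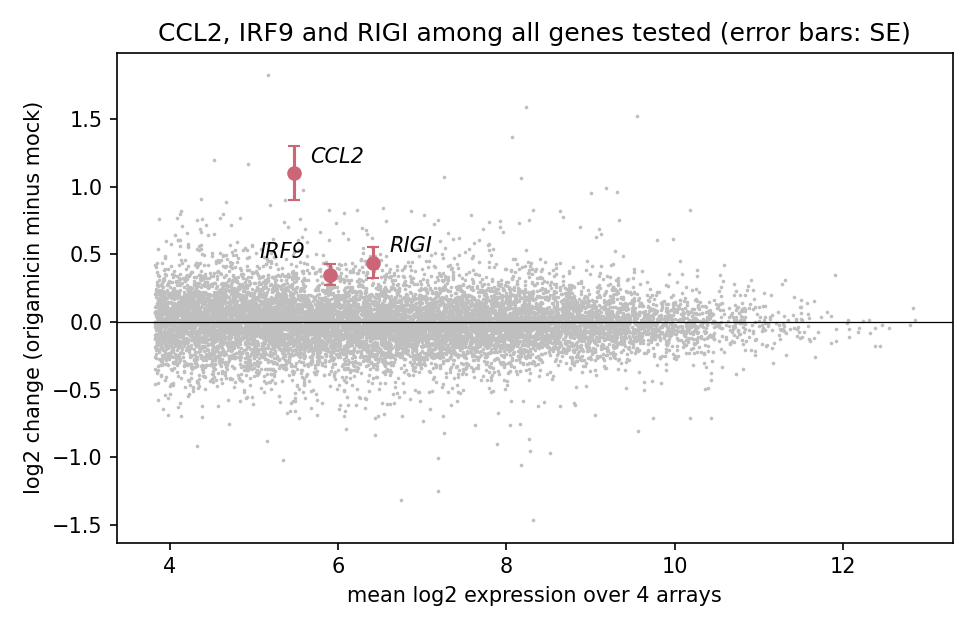
Log2 change (origamicin minus mock) against mean log2 expression for the 11883 genes tested (grey), with CCL2, IRF9 and RIGI in colour and their SE. CCL2 at 1.10 lies at the upper edge of the cloud, while IRF9 and RIGI lie in its upper part.

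Over the genes tested, Pearson's r was 0.995 between the mock arrays, 0.994 between the origamicin arrays and 0.991 to 0.992 across groups. In the limma fit no gene of the 11883 passed a Benjamini-Hochberg adjusted p of 0.05. At an unadjusted p under 0.05 there were 949 higher and 1001 lower genes, 1950 in all, or 16.4%. That number was 1270 without mock replicate 1 and 1261 without mock replicate 2. With an intensity trend in the variance model 511 genes passed, or 4.3%, of which 2.14% were higher and 2.16% lower. All 15 noradrenergic markers with a named probe set lay above the filter.

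The 10 lists that were written out with earlier results known cover the steps around CCL2, IRF9 and RIGI. Leaving these genes out, the lists held 319 genes, of which 200 had a named probe set and 146 were tested. No listed gene passed an adjusted p of 0.05 in limma. At an unadjusted p under 0.05 there were 20 higher and 6 lower, which is 13.7% and 4.11% of those tested, where all genes gave 7.99% and 8.42%. The adjusted p of these 26 genes ran from 0.095 to 0.29 in limma. With an intensity trend 8 listed genes passed: JAK1, STAT3, MAVS, RNF213 and FOSL1 were higher, and CXCR4, JUN and TNIP1 lower. These are 5.48% of the 146, near the 4.3% of all genes tested. The median change of the 146 genes was 0.0045, beside -0.0072 for all genes tested, and the first became -0.012 with equal array medians.

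Around RIGI itself, the sensing pathway held genes on both sides. Of 26 tested genes 13 were higher and 13 lower, with a median of -0.0085. On each side 1 had an unadjusted p under 0.05 (3.85%, beside 7.99% of all genes higher and 8.42% lower). MAVS, the adaptor directly downstream of RIG-I, stood at 7.94 and 8.02 in mock and at 8.25 and 8.31 with origamicin. Its groups did not overlap, and its change was 0.30 ± 0.07 (SE), with an adjusted p of 0.19 in limma and 0.040 with an intensity trend. TBK1, the kinase that phosphorylates IRF3, was at 0.20 ± 0.08 and the death domain adaptor TRADD at 0.13 ± 0.06, both without overlap between groups. Their adjusted p was 0.33 and 0.39 in limma. TRAF3, a ubiquitin ligase that links MAVS to TBK1, stood at 7.32 and 7.29 in mock and at 7.10 and 7.01 with origamicin, a change of -0.25 ± 0.07. IRF3 was at -0.17 ± 0.08 and the adaptor FADD at -0.15 ± 0.06. The groups of TRAF3, IRF3 and FADD did not overlap either. Of the 26 genes, 7 had groups apart on the higher side and 7 on the lower. That is 26.9% each, beside 22.7% and 25.8% of all genes tested.

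Of the other sensors, DHX58 and EIF2AK2 were tested, and IFIH1, CGAS and TLR3 were too dim for it. No gene at all passed the adjusted p in the main limma fit, and RIGI carries no test. The test therefore cannot set these sensors apart from RIGI. DHX58 (LGP2), a RIG-I relative without signalling domains, was at 4.87 and 5.18 in mock and 4.74 and 4.77 with origamicin, a change of -0.26 ± 0.12 on dim values with an adjusted p of 0.38 in limma. IFIH1, which encodes the sister sensor MDA5, lay between 2.17 and 2.49 on all 4 arrays, below the filter, and was not tested. CGAS, the DNA sensor, lay between 2.25 and 2.43 and TLR3, the endosomal RNA receptor, between 2.31 and 2.65, likewise below it. EIF2AK2 (PKR), a kinase that binds double-stranded RNA, was bright, between 10.02 and 10.13 on all 4 arrays, with overlapping groups and a change of 0.04 ± 0.07. TRIM25, a ubiquitin ligase known to activate RIG-I, was at -0.02 ± 0.06 (95% interval of its change from -0.19 to 0.15).

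None of the 21 interferon ligand genes had a named probe set, so IFNB1 and its relatives were not analysed here. The same holds for IFNAR1 and IFNAR2, the chains of the type I receptor. Of the receptor and JAK-STAT list, 14 of 28 genes were tested. In it 10 were higher and 4 lower, with a median of 0.09, and 5 genes, all higher, had an unadjusted p under 0.05 (35.7%, beside 7.99% of all genes on the higher side).

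JAK1, a kinase of the interferon receptors, was 9.33 and 9.32 in mock and 9.78 and 9.66 with origamicin. The treated arrays were both higher, by 0.39 ± 0.07 (SE), with an adjusted p of 0.17 in limma and 0.015 with an intensity trend. The change of TYK2, its partner at the type I receptor, was 0.05 ± 0.07, and its groups overlapped. JAK2, which serves the type II receptor, stood at 5.99 and 6.07 in mock and at 6.28 and 6.30 with origamicin (0.26 ± 0.07). SOCS1, an inhibitor of JAK kinases that interferon induces, stood at 4.03 and 4.04 in mock and at 4.36 and 4.40 with origamicin. Its change of 0.35 ± 0.06 rests on dim mock values close to the filter. STAT3, a transcription factor that answers IL-6 family cytokines, was at 0.27 ± 0.08 (adjusted p = 0.048 with an intensity trend in limma), and it was named after its value was seen. USP18, a feedback inhibitor of the type I receptor, was at -0.12 ± 0.09, and its groups overlapped.

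Among the relatives of IRF9, 9 of 11 listed IRF genes and partners were tested, 4 higher and 5 lower, with a median of -0.07. IRF1, a factor induced by interferon γ and NF-κB, was at 4.97 and 4.87 in mock and 5.29 and 5.12 with origamicin, a change of 0.28 ± 0.09. It was the only one with an unadjusted p under 0.05 (11.1% of the 9, beside 7.99% of all genes on the higher side). IRF7, the factor that amplifies type I interferon, was at -0.13 ± 0.09 with overlapping groups, and IRF8 at 0.07 ± 0.08.

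The interferon-stimulated genes lie downstream of IRF9. Of 74 listed genes, 43 had a named probe set, 15 of these lay below the filter, and 28 were tested. Of the 28, 11 were higher and 17 lower, with a median of -0.02, and 5 genes, all higher, had an unadjusted p under 0.05 (17.9%, beside 7.99% of all genes on the higher side). ISG15, a ubiquitin-like protein and a sensitive reporter of interferon, stood at 5.82 and 5.87 in mock and at 5.95 and 5.71 with origamicin. Its groups overlapped, and its change of -0.01 ± 0.10 had a 95% interval from -0.29 to 0.26. IFIT1 lay between 3.07 and 3.79, IFIT3 between 1.85 and 2.17 and the chemokine CXCL10 between 2.36 and 2.94, all below the filter on every array. MX1 and OAS1 have no named probe set and were not analysed here.

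Single genes of this list stood higher beside IRF9 and RIGI. RNF213, a large ubiquitin ligase with antimicrobial activity, was at 7.38 and 7.33 in mock and at 7.83 and 7.86 with origamicin. The groups lay far apart relative to their spread, with a change of 0.49 ± 0.07 (SE; adjusted p = 0.13 in limma, 0.013 with an intensity trend). B2M, the light chain of MHC class I, was at 0.25 ± 0.06, and the nuclear body protein SP110 at 0.44 ± 0.11 on dim values. On the lower side were the ubiquitin ligase HERC6 (-0.43 ± 0.19), IFITM2, a membrane protein that blocks viral entry (-0.24 ± 0.10), and TRIM14, a cofactor of MAVS signalling (-0.21 ± 0.08). None of these had an adjusted p under 0.1 in limma.

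The promoters of this list could be set beside those of IRF9 and RIGI. The longer ISRE core GAAA-NN-GAAA stood in 13 of the 24 tested list genes with a promoter window. Of these 13 genes 6 were higher and 7 lower, with a median of -0.01, and of the 11 without it 5 were higher and 6 lower, with a median of -0.01. The following 30-base stretches are shown because they carry this core, in capitals, in genes that differ in their change: B2M at chr15:44711363-44711392, TAPBP at chr6:33314079-33314108 (minus strand), ISG15 at chr1:1013374-1013403, IFIT5 at chr10:89414513-89414542 and TRIM14 at chr9:98119229-98119258 (minus strand), and SOCS1 of the JAK-STAT list at chr16:11256298-11256327 (minus strand). In IFIT5 and TRIM14 the core lies on the opposite strand. In B2M, TAPBP and ISG15 a second, overlapping copy runs on into the lower-case letters.
B2M: gagactctaaGAAAAGGAAActgaaaacgg
TAPBP: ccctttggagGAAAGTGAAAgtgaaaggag
ISG15: catgcctcggGAAAGGGAAAccgaaactga
IFIT5: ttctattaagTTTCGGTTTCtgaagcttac
TRIM14: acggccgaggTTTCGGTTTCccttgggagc
SOCS1: cgccaccgcgGAAAGAGAAAccaaaagtgg
With this core in all 6, the change was 0.25 ± 0.06 in B2M, 0.29 ± 0.08 in TAPBP (a chaperone of peptide loading), -0.01 ± 0.10 in ISG15, -0.14 ± 0.08 in IFIT5 (an RNA-binding antiviral protein), -0.21 ± 0.08 in TRIM14 and 0.35 ± 0.06 in SOCS1. TAPBP and IFIT5 were named after their values were seen. Among all 9051 other tested genes with a window, 193 held the core, and 11.4% of these were higher and 7.77% lower at an unadjusted p under 0.05, beside 7.86% and 8.7% of the 8858 without it. For the shorter core AANNGAAA, carried by IRF9 and RIGI, the shares were 7.95% and 7.64% with it (1270 genes) and 7.93% and 8.85% without it.

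CCL2 was set beside the other chemokines. Of 40 other chemokine genes 36 had a named probe set, and 19 of these lay below the filter. Of the 17 tested, 6 were higher and 11 lower, with a median of -0.04 and changes from -0.31 to 0.48, against 1.10 for CCL2. CCL16 (0.48 ± 0.10) was the highest, on 4.24 and 4.28 in mock and 4.62 and 4.87 with origamicin. CXCL17 (-0.31 ± 0.09) and CCL25 (-0.21 ± 0.07) were lower, also on dim values. CXCL8, the neutrophil chemokine that NF-κB and AP-1 also induce, lay between 2.28 and 2.74, below the filter.

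Among the chemokine receptors, CXCR4 was lower with origamicin. CCR2, the receptor of CCL2, lay between 2.98 and 3.27 on all 4 arrays, below the filter, and was not tested. CXCR4, the receptor of CXCL12, was bright in mock at 10.7 and 10.8 and stood at 10.0 and 10.1 with origamicin. Both treated arrays were lower, by 0.71 ± 0.07 (SE; adjusted p = 0.095 in limma, 0.0019 with an intensity trend). CX3CR1 was at 0.39 ± 0.11, with 3.70 and 3.87 in mock and 4.29 and 4.06 with origamicin. Its mock mean of 3.79 lay below the filter of 3.82. It was tested only because its treated arrays were higher, so its place among the higher genes carries little weight. In all 8 receptors were tested, 4 higher and 4 lower.

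The factors known to act on CCL2 were found on both sides as well. Of 18 tested genes of the NF-κB machinery 10 were higher and 8 lower, with a median of 0.0090 that became -0.0073 with equal array medians. The subunits RELA (0.10 ± 0.06) and NFKB1 (0.04 ± 0.07) had an adjusted p of 0.50 and 0.83 in limma. TNIP1, an inhibitor of NF-κB signalling, was at 7.12 and 7.06 in mock and 6.74 and 6.66 with origamicin, a change of -0.39 ± 0.07 (adjusted p = 0.17 in limma, 0.040 with an intensity trend). Its relative TNIP2 went the other way, at 0.28 ± 0.07. NFKBIA and TNFAIP3, the usual feedback targets, were not analysed here.

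Of 12 tested inflammatory targets often induced with CCL2, 9 were higher and 3 lower, with a median of 0.13. The cytokine LIF stood at 4.38 and 4.54 in mock and at 4.96 and 4.78 with origamicin (0.41 ± 0.10). HMOX1, haem oxygenase, stood at 5.06 and 5.47 in mock and at 5.71 and 5.88 with origamicin (0.53 ± 0.16). These had an unadjusted p under 0.05 (16.7% of the 12, beside 7.99% of all genes on the higher side), and the other 10 did not. The adhesion molecule ICAM1 (-0.15 ± 0.08) and the cytokine IL11 (-0.19 ± 0.12) were on the lower side.

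Among 17 tested AP-1 and CREB/ATF factors 9 were higher and 8 lower, and the AP-1 subunits differed in sign. FOSL1 was 5.19 and 5.13 in mock and 5.90 and 5.94 with origamicin, a change of 0.76 ± 0.07 (adjusted p = 0.095 in limma, 0.016 with an intensity trend). JUN, its usual partner, was 7.75 and 7.67 in mock and 7.16 and 7.10 with origamicin, a change of -0.58 ± 0.07 (adjusted p = 0.11 in limma, 0.0097 with an intensity trend). FOS was at 0.21 ± 0.07 and JUNB at -0.08 ± 0.07.

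**Figure D3:**
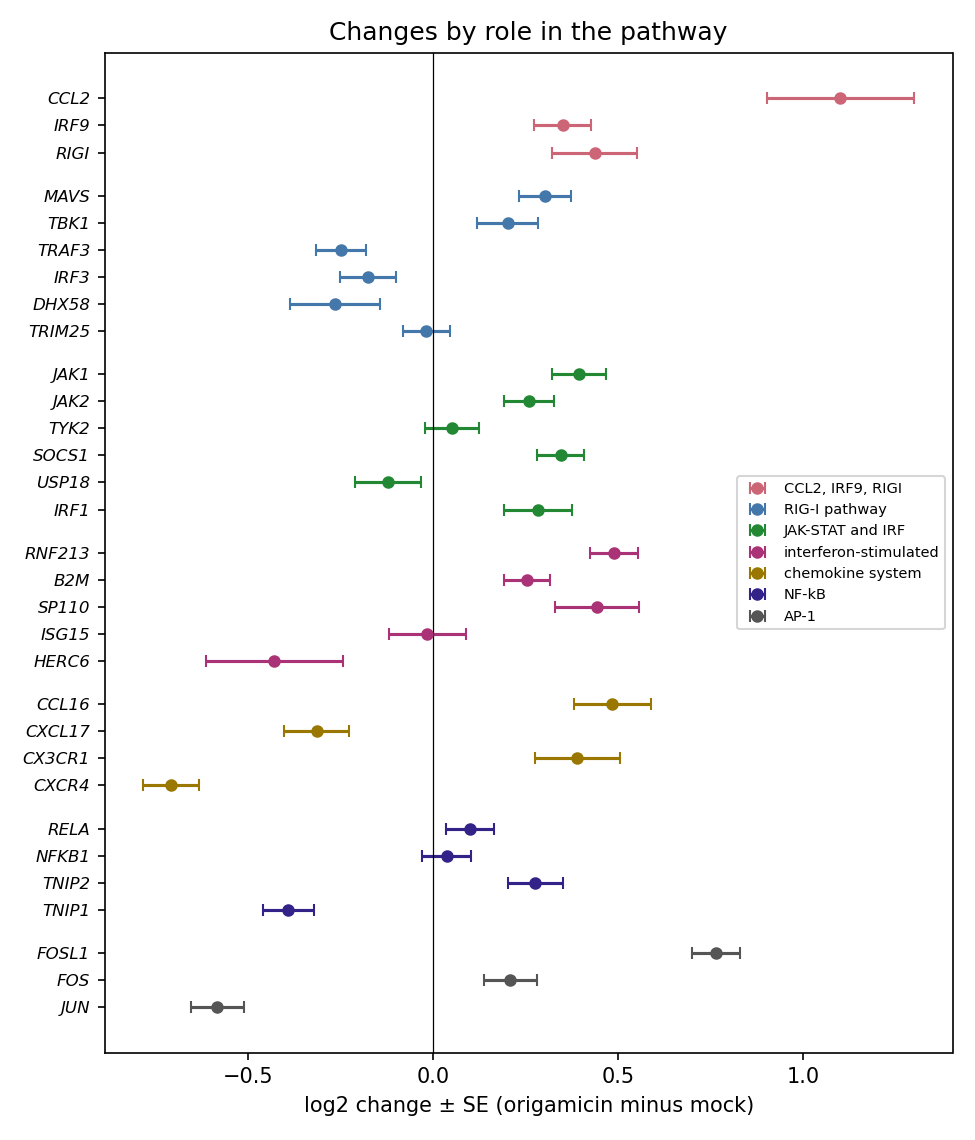
Log2 change (origamicin minus mock) with its SE for CCL2, IRF9, RIGI and 28 genes around them, grouped by role. MAVS (0.30), JAK1 (0.39) and RNF213 (0.49) lie on the same side as IRF9 and RIGI, while TRAF3 (-0.25), JUN (-0.58) and CXCR4 (-0.71) lie on the other.

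**Figure D4:**
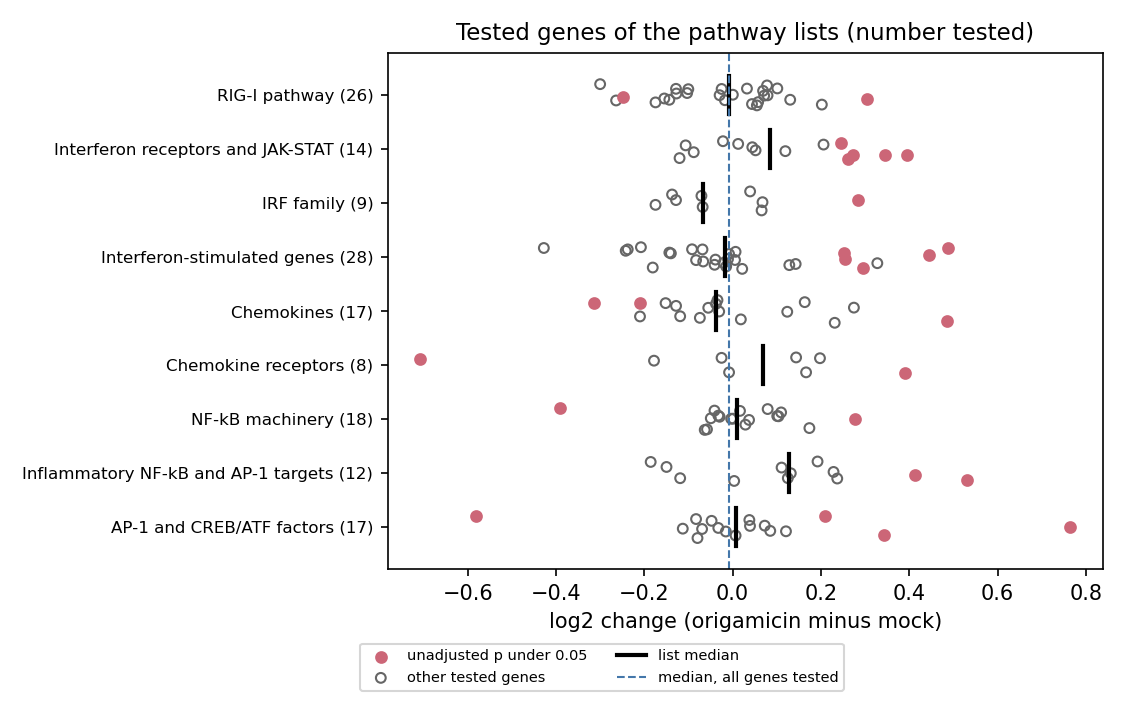
Log2 change of every tested gene in 9 pathway lists, with CCL2, IRF9 and RIGI left out (filled, unadjusted p under 0.05; black bar, list median; dashed line, median of all genes tested). The medians lie between -0.07 and 0.13, and each list spreads to both sides of 0.

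Markers of the line and of other cell types were also compared, and no tested marker passed an adjusted p of 0.05 in the main limma fit. Of the 15 tested noradrenergic markers, which mark the line itself, 13 were lower and 2 higher, with a median of -0.17. At an unadjusted p under 0.05, 8 were lower (53.3%, beside 8.42% of all genes) and 1, INSM1, was higher (0.35 ± 0.12). With an intensity trend 6 passed, all lower. Smallest in p were DDC, an enzyme of catecholamine synthesis (-0.59 ± 0.06), and the granins CHGA (-0.80 ± 0.09) and CHGB (-0.76 ± 0.08). Not all markers moved: TH (-0.005 ± 0.12), the granin SCG2 (-0.006 ± 0.08), GATA3 (-0.02 ± 0.06) and HAND2 (0.04 ± 0.07) had small changes. The summed linear level of the 15 ran from 23784 to 24051 in mock and from 21022 to 21157 with origamicin. Of 20 mesenchymal (S-type) markers 15 were tested, 11 higher and 4 lower with a median of 0.10, and VIM, FN1 and FOSL1 had the smallest p. At an unadjusted p under 0.05, 4 were higher (26.7%, beside 7.99% of all genes) and 0 lower. On the lower side were TWIST1 (-0.05 ± 0.07), FOSL2 (-0.08 ± 0.10) and RUNX2 (-0.03 ± 0.08), among others. The summed linear level of the 16 named markers ran from 1858 to 1922 in mock and from 2172 to 2239 with origamicin. Of 16 leukocyte markers 8 had a named probe set and 6 were tested, 4 higher and 2 lower. The summed linear level of the 8 named markers ran from 205 to 223 in mock and from 268 to 279 with origamicin. Of these, CD163 and LYZ lay below the filter. Without CD68, a choice made after the data were seen, the sum ran from 143.3 to 145.3 in mock and from 149.2 to 149.7 with origamicin. CD68, a lysosomal protein that other cells also make, stood at 5.91 and 6.31 in mock and at 7.01 and 6.90 with origamicin (0.84 ± 0.15), and the monocyte receptor CD14 at 0.41 ± 0.14 on dim values. SPI1 was at 0.08 ± 0.07, TYROBP at -0.09 ± 0.09 and CD2 at -0.08 ± 0.18. In limma the adjusted p was 0.17 for CD68, 0.27 for CD14 and between 0.61 and 0.87 for SPI1, TYROBP and CD2. With an intensity trend in limma it was 0.024 for CD68 and 0.26 for CD14. The part of these markers in the values of CCL2, IRF9 and RIGI was not tested.

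The chromosomal neighbours of the 3 genes were read next, as the 3 genes with a value on either side. Genes without a named probe set were passed over, so these genes need not be adjacent. CCL2 lies in a chemokine cluster on chromosome 17, where CCL7 (between 2.27 and 2.45) and CCL8 (between 2.86 and 3.19) were below the filter. CCL11, between them, stood at 1.75 and 1.47 in mock and at 2.17 and 2.85 with origamicin. It was lower than the filter on all 4 arrays and was not tested. The genes beside IRF9 on chromosome 14 were on the lower side except FITM1, where 6195 of all 11883 genes tested were lower. FITM1 (0.06 ± 0.26) and TSSK4 (-0.10 ± 0.15) had overlapping groups. REC8, a meiotic cohesin subunit, was at 8.70 and 8.65 in mock and 8.34 and 8.24 with origamicin, a change of -0.38 ± 0.07 (adjusted p = 0.17 in limma, 0.018 with an intensity trend). EMC9 (-0.26 ± 0.07), the importin IPO4 (-0.19 ± 0.08) and the ubiquitin ligase RNF31 (-0.11 ± 0.07), a subunit of the complex that activates NF-κB, were also on the lower side. Around RIGI, LINGO2 (0.15 ± 0.09), TMEM215 (0.12 ± 0.08), SMU1 (-0.03 ± 0.07) and BAG1 (0.06 ± 0.07) had an adjusted p between 0.45 and 0.89 in limma. They lie far from RIGI, which starts at base 32455302: LINGO2 ends at base 29213601 and BAG1 starts at base 33252471. The microRNA genes MIR876 and MIR873 lay below the filter and were not tested.

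**Figure D5:**
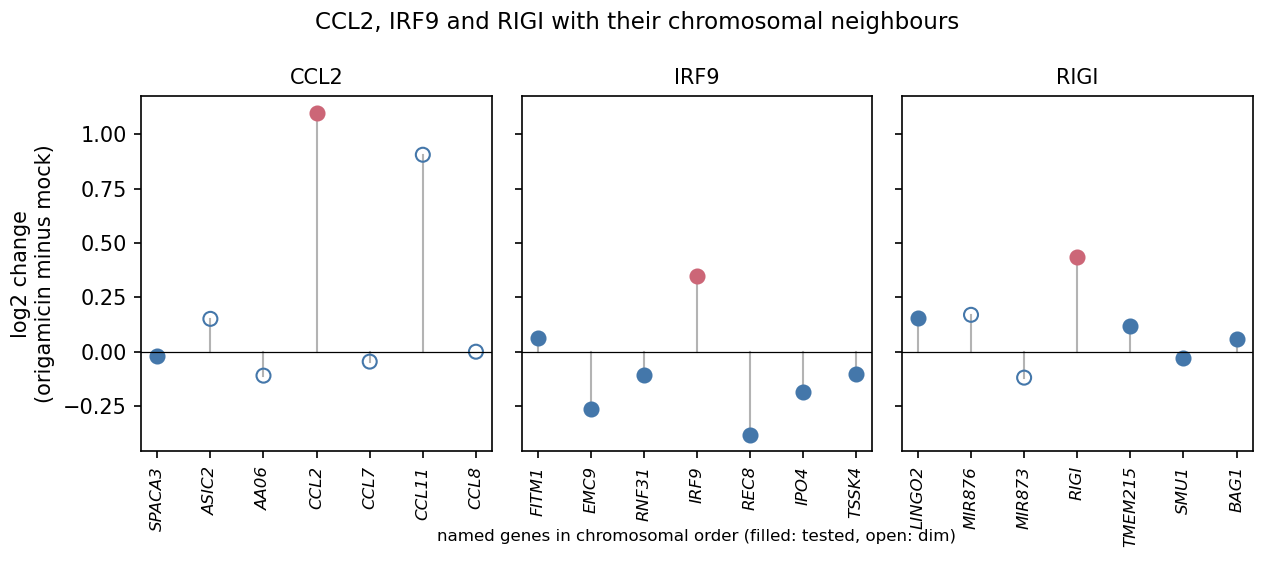
Log2 change (origamicin minus mock) of CCL2, IRF9 and RIGI and of the 3 named genes on either side of each in chromosomal order (open symbols lie below the filter). CCL2 (1.10) and the dim CCL11 (0.91) stand above their neighbours, and IRF9 (0.35) lies opposite to REC8 (-0.38).

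Genes with the most similar pattern were found by the root mean square difference of mean-centred log2 values over the 4 arrays, a description with no test. For CCL2 they were GPNMB, a lysosomal glycoprotein (difference 0.07), the stress-induced kinase PLK2 (0.15), DDIT3, which encodes CHOP (0.18), the keratin KRT83 (0.18) and SCARNA3 (0.18). GPNMB, at 4.93 and 5.26 in mock and 5.78 and 6.37 with origamicin, took the 4 arrays in the same order as CCL2. For IRF9 they were NAGK, EFEMP2, BLTP1, DDR1 and CLIP3, with differences from 0.0081 to 0.015. For RIGI they were SUSD6, the inhibitory SMAD gene SMAD6, the lysosomal regulator TFEB, PVALB and the histone methyltransferase KMT2D, with differences from 0.017 to 0.031. None of the 15 genes is in the pathway lists, but these hold only 146 of the 11883 genes tested, so nothing is read from this. IRF9 and RIGI differed from each other by 0.09 on this scale, and from CCL2 by 0.45 and 0.41.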

How the data were processed

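The deposited log2 expression values of 4 arrays (range 0.574 to 14.5, array medians 4.37 to 4.42) were used as the authors normalized them. The submitters' processing notes name RMA and limma and give no version, and the genome build is not given in the sources used here. Of 53617 probe sets, 16098 name 1 gene and 37519 are unnamed here. All gene identifiers matched RefSeq (GRCh38.p14), which supplied coordinates and promoters.

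Per gene the probe set with the highest mean was kept (779 genes had several), and genes with a mean under 3.82, the 40th percentile over all probe sets, were left out as dim, leaving 11883. All genes were fitted in limma 3.58.1 under R 4.3.3 (lmFit, eBayes, origamicin minus mock, two-sided, no covariate), with Benjamini-Hochberg adjustment, and the fit was tested on simulated data. Arrays have no counting depth, and their number limits the precision.

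CCL2, IRF9 and RIGI, the lists and the motifs were chosen with earlier results of these data known. Genes named are the 3 higher and 3 lower with the smallest p of a list or fewer of them, a fixed set of canonical pathway genes, 3 neighbours a side and the 5 nearest patterns. STAT3, TAPBP, IFIT5, EIF2AK2, CGAS, TLR3, TH, SCG2, GATA3, CD163 and LYZ were named outside these rules. The replicate numbers were checked for pairing: the deviations of same-numbered arrays correlated at -0.02, so they were not treated as pairs. Alternatives were a replicate block, other filters, scalings, probe set rules and variance models, and leaving out each array.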

Additional observations from a re-analysis of the deposited data

How the results depend on the processing

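The changes of CCL2, IRF9 and RIGI kept their direction under quantile normalization and equal array medians. Averaging of probe sets could not move them, as each gene has 1 probe set. No reversal was possible on leaving out an array, since the groups of each gene do not overlap. Leaving out 1 array gave 0.86 to 1.34 for CCL2, 0.29 to 0.41 for IRF9 and 0.30 to 0.57 for RIGI. It gave 18 to 21 pathway genes with an unadjusted p under 0.05, beside 26 with all arrays, and 0 genes with an adjusted p under 0.05 in each case. With the replicate block, 0 genes passed and 24 pathway genes had an unadjusted p under 0.05. The changes stayed at 1.10, 0.35 and 0.44, as they must in a block that holds 1 array of each group. The count of genes past an adjusted p of 0.05 in limma moved from 0 to 92 with the 60th percentile filter, where fewer genes were tested, and to 511 with an intensity trend. It was 0 with robust eBayes, no filter, averaged probe sets and both scalings, where 1872 to 1956 genes had an unadjusted p under 0.05. Levels near the filter, as in SOCS1 and CX3CR1, limit what their folds show.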
